A study of Homo sapiens with 30 samples.

Results

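PRSS2, EPHB6, TERT and MISP are 4 genes whose transcripts were higher in subclone 2 than in subclone 13 of the breast cancer line MDA-MB-231. They were chosen on that difference in a first experiment, whose count table holds 38526 genes. The table of a retransplantation experiment, which held subclone 2 only, has 36291 genes (33867 shared), and all 4 are in both tables. MDA-MB-231 is a human triple-negative line of mesenchymal type, and its cells carried LeGO barcodes, which are lentiviral tags that mark the progeny of a single cell. Each subclone is therefore 1 marked clone, and differences between the subclones are differences between 2 clones. The cells grew in NOD-SCID-IL2Rγc-/- (NSG) mice, which lack T, B and natural killer cells.

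The first experiment compared sorted cells of subclone 2 and subclone 13 in 3 sites, the primary tumour, metastases of the lung and metastases of the liver, giving 6 groups of 3 samples, each group with 1 sample from each of the same 3 mice (mice 1, 2 and 3). The retransplantation experiment held sorted cells of subclone 2, 3 samples labelled lung metastasis and 3 labelled liver metastasis, from 3 other mice (mice 4, 5 and 6). Whether that organ supplied the retransplanted cells or is where they were recovered is not stated in the labels. No drug treatment or gene edit is named for any group, and the ages of the mice and the sorting markers are not given in the sources used here. The values are read counts of bulk RNA, and the 18 samples of mice 1 to 3 held 11.8 to 82.2 M counts each (1 M is 1e+06), the 6 retransplant samples 23.4 to 32.3 M. On the first principal component, with 32.6% of the variance, all 6 samples of mouse 1 lay at -160 to -25.7 and the 12 of mice 2 and 3 at 16.7 to 73.4, so the samples of mouse 1 stood apart in both subclones. Markers of the line (VIM, CD44, FN1, AXL and CAV1) summed to 6613 to 19872 CPM (counts per M, after TMM scaling) in the first experiment, and pancreatic acinar markers (CPA1, CPB1, AMY2A and CTRB1), the textbook source of PRSS2, to at most 0.806 CPM, with CPA1, CPB1 and AMY2A at 0 in every subclone 2 sample.

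PRSS2 encodes anionic trypsinogen, the precursor of a trypsin that the exocrine pancreas secretes and that several tumours also make. EPHB6 encodes an Eph receptor whose kinase domain lacks catalytic activity; Eph receptors bind membrane-held ephrins on neighbouring cells and guide adhesion and repulsion. TERT is the catalytic, reverse transcriptase subunit of telomerase, which adds repeats to chromosome ends and is re-expressed in most cancers. MISP binds cortical actin and helps to hold the mitotic spindle in place.

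PRSS2 (ENSG00000275896) lies on the plus strand of chromosome 7, at chr7:142760398-142774564 in GRCh38. EPHB6 (ENSG00000106123), at chr7:142855061-142871094 on the same strand, starts 80.5 kb downstream of its end. TERT (ENSG00000164362) lies on the minus strand at chr5:1253147-1295069, and MISP (ENSG00000099812) on the plus strand at chr19:751126-764318. No gene on the opposite strand overlaps any of the 4, which matters because the library kit did not keep strand. The 250 bases before the RefSeq start of 3 of the genes (GRCh38.p14, plus strand) are shown because PRSS2 and EPHB6 are neighbours that were high in the same samples, with MISP as the member on another chromosome. Capitals mark matches to the TATA box (TATAAA), to CCAAT and to the GC box (GGGCGG, on either strand).
PRSS2, chr7:142770720-142770969: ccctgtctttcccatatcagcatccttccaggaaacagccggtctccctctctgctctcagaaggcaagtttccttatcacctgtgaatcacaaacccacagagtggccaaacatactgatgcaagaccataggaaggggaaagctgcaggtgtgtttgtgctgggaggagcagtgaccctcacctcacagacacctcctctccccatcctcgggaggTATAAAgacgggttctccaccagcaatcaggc
EPHB6, chr7:142862506-142862755: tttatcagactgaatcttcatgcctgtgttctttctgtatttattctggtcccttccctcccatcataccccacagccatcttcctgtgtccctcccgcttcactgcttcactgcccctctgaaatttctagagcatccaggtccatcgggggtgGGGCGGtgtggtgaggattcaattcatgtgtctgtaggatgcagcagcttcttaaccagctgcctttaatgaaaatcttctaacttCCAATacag
MISP, chr19:750862-751111: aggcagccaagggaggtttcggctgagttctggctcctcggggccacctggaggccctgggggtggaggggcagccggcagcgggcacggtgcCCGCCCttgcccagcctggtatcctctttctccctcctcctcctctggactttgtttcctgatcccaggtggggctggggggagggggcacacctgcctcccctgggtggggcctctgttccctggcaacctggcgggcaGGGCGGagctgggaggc

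The PRSS2 stretch, with 53.6% G and C, had the TATA letters 32 bases before the start and neither of the other motifs. The EPHB6 stretch, with 48% G and C, held a GC box 95 bases and CCAAT 9 bases before the start. Both stretches lie inside the gene bodies given above for PRSS2 and EPHB6, which start further upstream than the RefSeq starts, whereas the MISP stretch lies before its gene. MISP, at 70.4% G and C, had GC boxes 17 and 157 bases before the start. The E-box CACGTG was in none of the 3. Searched on both strands of all 35116 RefSeq promoter windows of that length, TATAAA was present in 10.7%, the GC box in 42.6%, CCAAT in 32% and CACGTG in 6.34%, and the median G and C content was 58%. A match is a description of letters only, and the motifs do not overlap one another here.

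PRSS2 in subclone 2 stood at 64.2, 55.2 and 41.7 CPM in the tumours of mice 1, 2 and 3, at 58.5, 43.3 and 26.0 CPM in the lung and at 30.1, 23.0 and 43.2 CPM in the liver. In subclone 13 it stood at 20.7, 1.43 and 4.30 CPM in the tumours, at 2.12, 2.14 and 0.889 CPM in the lung and at 1.83, 1.75 and 1.18 CPM in the liver. Every subclone 2 sample was above every subclone 13 sample of the same organ, and the closest approach was the subclone 13 tumour of mouse 1. That tumour sample was the sum of 3 sequencing runs that gave 19.2, 18.3 and 20.2 CPM by total count, so its high value recurred in each run. It was also the highest subclone 13 sample for EPHB6, MISP and TRBC1, a neighbour of PRSS2, but not for TERT; what sets it and the other samples of mouse 1 apart was not tested. In bulk RNA, fewer cells with a transcript and less transcript per cell cannot be told apart, for any of these genes.

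EPHB6 in subclone 2 stood at 22.9, 11 and 19.7 CPM in the tumours of mice 1, 2 and 3, at 56.8, 24.5 and 9.25 CPM in the lung and at 39.0, 4.53 and 37.4 CPM in the liver. In subclone 13 it stood at 3.17, 0.666 and 0.955 CPM in the tumours, at 0.0984, 0.755 and 0 CPM in the lung and at 1.15, 0.544 and 0.722 CPM in the liver. In subclone 13 the receptor rested on 24 counts or fewer in 7 of 9 samples, and on 147 and 68 counts in the tumour and liver of mouse 1. The subclone 2 liver of mouse 2 was the lowest of its subclone and still above every subclone 13 sample.

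TERT in subclone 2 stood at 62.5, 21.8 and 28.2 CPM in the tumours of mice 1, 2 and 3, at 88.3, 61.6 and 78.8 CPM in the lung and at 104, 30.2 and 117 CPM in the liver. In subclone 13 it stood at 5.68, 5.17 and 6.49 CPM in the tumours, at 13.4, 11.1 and 39.8 CPM in the lung and at 10.8, 22.1 and 17.5 CPM in the liver. Within each organ the subclones did not overlap. Across organs they did: the subclone 13 lung of mouse 3 was above 3 of the subclone 2 samples, the tumours of mice 2 and 3 and the liver of mouse 2.

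MISP in subclone 2 stood at 62.0, 59.4 and 87.7 CPM in the tumours of mice 1, 2 and 3, at 65.8, 71.7 and 62.6 CPM in the lung and at 37.5, 34.7 and 35.7 CPM in the liver. In subclone 13 it stood at 39.5, 17.2 and 27.3 CPM in the tumours, at 22.4, 21.1 and 20.4 CPM in the lung and at 24.5, 16.8 and 13.7 CPM in the liver. The 3 liver samples of subclone 2 were the lowest of that subclone (all liver below all tumour samples, which held for 5.1% of genes) and lay below the subclone 13 tumour of mouse 1.

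**Figure D1:**
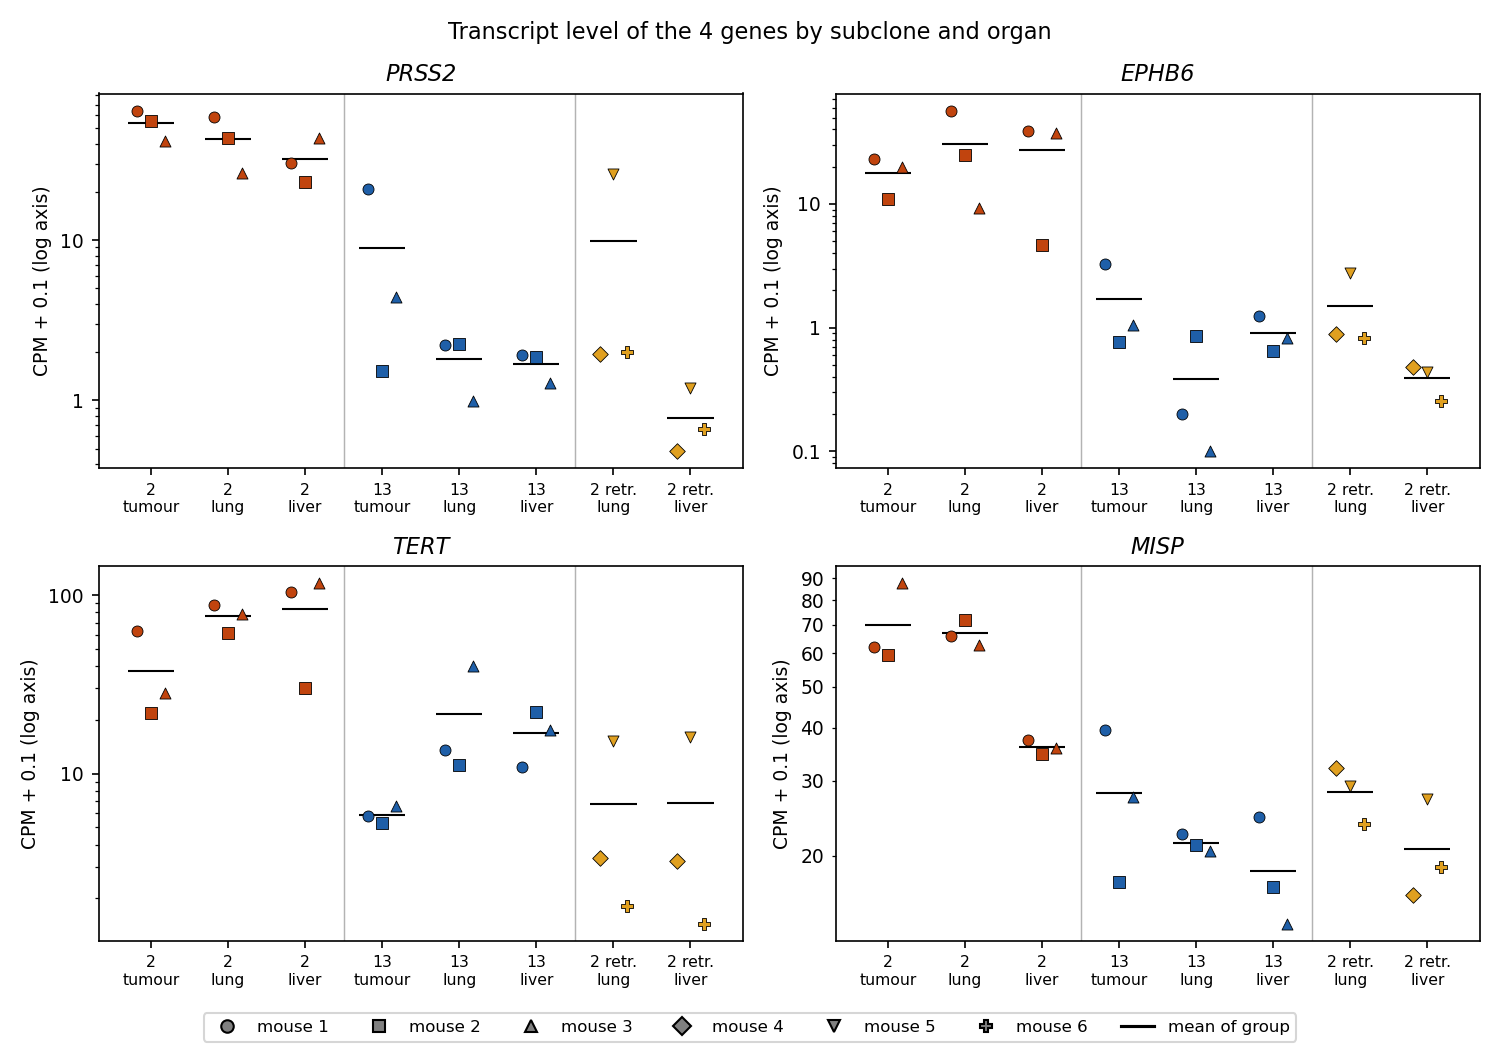
Transcript level of PRSS2, EPHB6, TERT and MISP in every sample, as CPM plus 0.1 on a log axis, by subclone and organ, with symbols for mice and black lines for group means; samples of the retransplantation experiment (2 retr.) are scaled within their own table. Subclone 2 samples of mice 1 to 3 lie above subclone 13 samples of the same organ for each gene. The retransplanted subclone 2 samples lie below the subclone 2 samples of mice 1 to 3 of the same organ.

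Mean PRSS2 ran from 53.7 ± 11.4 CPM (SD, n = 3) in subclone 2 tumours through 42.6 ± 16.3 in lung to 32.1 ± 10.2 in liver, and from 8.82 ± 10.4 in subclone 13 tumours to 1.72 ± 0.717 in lung and 1.59 ± 0.354 in liver. No neighbouring pair in that order had separate ranges within a subclone. EPHB6 was ordered differently, with means of 30.2 ± 24.3 CPM in subclone 2 lung, 27.0 ± 19.5 in liver and 17.8 ± 6.18 in tumours, and of 1.60 ± 1.37, 0.806 ± 0.312 and 0.284 ± 0.411 in subclone 13 tumours, liver and lung. TERT had its lowest mean in the tumours of both subclones, 37.5 ± 21.9 and 5.78 ± 0.663 CPM, against 76.2 ± 13.5 and 21.5 ± 15.9 in lung and 83.7 ± 46.8 and 16.8 ± 5.69 in liver. In subclone 13 all 3 lung and all 3 liver samples were above all 3 tumours for TERT, a pattern held by 7.37% and 5.22% of genes. MISP was the member whose subclone 2 lung, at 66.7 ± 4.64 CPM, and liver, at 35.9 ± 1.40, had ranges that did not overlap (lung above liver, 5.92% of genes). Per kilobase of exon, so that genes can be compared, subclone 2 tumours held 42.6 ± 9.02 CPM per kb of PRSS2, 23.5 ± 5.27 of MISP, 8.15 ± 4.76 of TERT and 3.35 ± 1.16 of EPHB6. In subclone 13 tumours MISP was first at 9.44 ± 3.76 CPM per kb, followed by PRSS2 at 7.01 ± 8.27, TERT at 1.26 ± 0.144 and EPHB6 at 0.300 ± 0.258.

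Because the same mouse gave both subclones, each organ also allows a ratio within the mouse. In mouse 1 the subclone 13 samples were sums over runs 1, 2 and 3 and those of subclone 2 came from 1 run. The ratios of mouse 1 are therefore not matched for sequencing run. The genes were chosen on the subclone difference, and within each organ their subclones did not overlap. All 36 ratios of subclone 2 over subclone 13 (4 genes, 3 organs, 3 mice) were therefore bound to be above 1, and they describe the size of that difference only. They ran from 3.10 to 38.5 for PRSS2 (median 20.2), from 1.36 to 11 for TERT (median 5.53) and from 1.53 to 3.45 for MISP (median 2.94). For EPHB6 the lowest was 7.22, in the tumour of mouse 1. Its highest, 578 in the lung of mouse 1, rests on 7 counts in subclone 13, and in the lung of mouse 3, with 0 counts of 13.4 M, it was at least 41.3-fold higher (against 3 counts in that library). In lung, TERT had its lowest ratio in mouse 3, where the subclone 13 sample stood out.

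**Figure D2:**
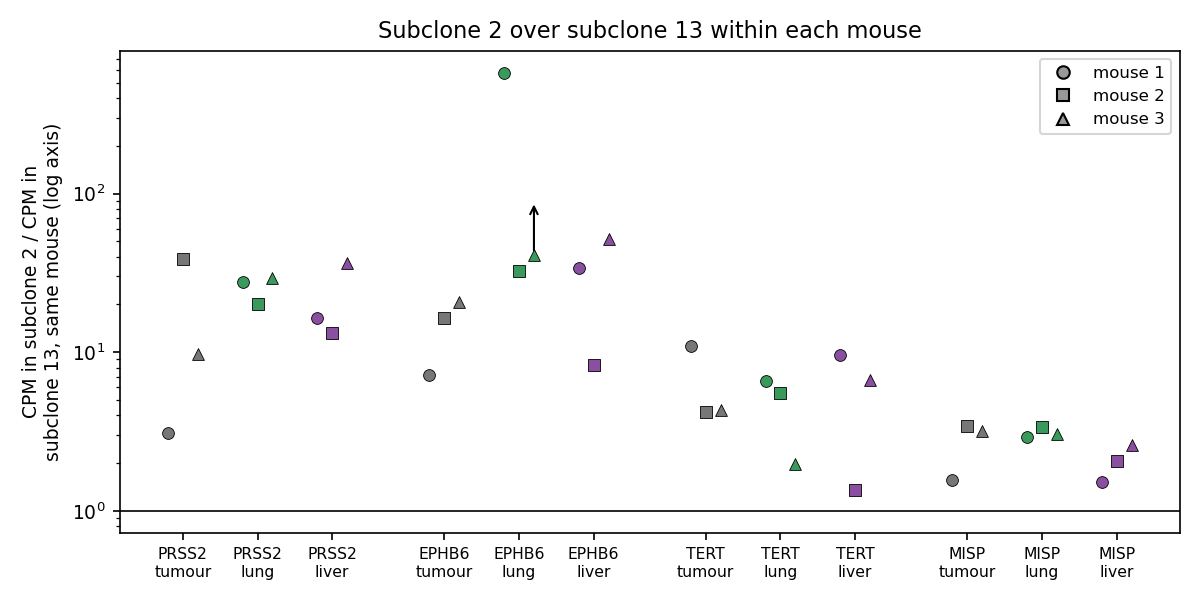
Ratio of CPM in subclone 2 to CPM in subclone 13 of the same mouse and organ, on a log axis, by gene and organ; symbols are mice, the line at 1 is equality, and the arrow marks a lower bound where subclone 13 had 0 counts. All 36 ratios are above 1, which the choice of the genes and their separate ranges fixed in advance. The lowest is TERT in the liver of mouse 2, at 1.36, and the MISP ratios lie between 1.53 and 3.45.

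The subclone difference is what the genes were chosen on, so it is given without a test. Fold changes from the edgeR fit of all 18 samples, as log2 subclone 2 minus subclone 13 ± SE, were 2.59 ± 0.63 in tumours, 4.59 ± 0.71 in lung and 4.32 ± 0.70 in liver for PRSS2. For EPHB6 they were 3.43 ± 0.88, 6.93 ± 1.09 and 4.99 ± 0.95, for TERT 2.70 ± 0.54, 1.83 ± 0.52 and 2.32 ± 0.53, and for MISP 1.31 ± 0.27, 1.65 ± 0.28 and 0.96 ± 0.27. The rule names no threshold. In the edgeR fit with mouse as a term, 5 of 17418 genes (0.0287%) had an adjusted p under 0.05 and were higher in subclone 2 in all 3 organs, and these were the 4 members and TRBC2. Since these values are the difference itself, they describe the choice and support nothing. The smallest log2 difference over the organs in that fit was 2.87 for PRSS2, 3.62 for EPHB6, 1.95 for TERT, 0.98 for MISP and 2.79 for TRBC2; of the genes just outside, it was 0.77 for SYNGR2, 1.07 for SLC4A11 and 2.17 for LSR. All 3 subclone 2 samples were above all 3 subclone 13 samples in 4.16% of the genes tested in tumours, 5.9% in lung and 4.37% in liver, and in each of the 3 organs in 78 genes (0.448%).

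Whether a member changes between organs within a subclone is a question its selection did not answer, and the edgeR fit without a mouse term called none of the 4 in any of 9 comparisons between organs or of organ changes between subclones (36 tests, of which 13 had an unadjusted p under 0.05). Of these, the tests of organ changes between subclones use the differences the members were chosen on. In the same fit 0.436% of all genes were called in subclone 2 lung against tumour, 0.287% in liver against tumour and 0.023% in lung against liver. In subclone 13 the shares were 0.419%, 0.385% and 0% (792 genes at an unadjusted p under 0.05). Samples with the same number come from the same mouse, and 5 of the 36 tests were called by edgeR once mouse was a term, where 3.05%, 1.68% and 2.95% of all genes were called in the 3 subclone 2 comparisons and 2.89%, 1.83% and 0.276% in those of subclone 13. DESeq2, without a mouse term, called the same 5 tests, with 1.96%, 1.27% and 1.33% of all genes called in subclone 2 and 1.95%, 1.44% and 0.291% in subclone 13. Without the filter on low counts edgeR called 9 of the 36 tests, 3 of them among those 5, with 0.582%, 0.694% and 0.657% of genes called in subclone 2, 0.691%, 0.793% and 0.205% in subclone 13 and 1.98% in the retransplants. The libraries of subclone 13 of mouse 1 came from runs 1, 2 and 3, and all others of a mouse from 1 run each, so outside that group mouse and run cannot be told apart.

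The transcript of MISP, which encodes the spindle-positioning protein, was lower in liver than in tumours of subclone 2 by -0.96 ± 0.27 log2 (3 of 3 mice). Its edgeR adjusted p was 0.240 without and 0.0432 with the mouse term. It was higher in lung than in liver by 0.89 ± 0.27 (3 of 3 mice), with edgeR adjusted p of 0.281 and 0.0438. Lung and tumour differed by -0.06 ± 0.27. In subclone 13 the MISP values were -0.61 ± 0.27 for liver against tumour and -0.40 ± 0.27 for lung against tumour, and neither was called. With the mouse term, leaving out any of the 6 samples in turn kept the liver-tumour call in 1 of 6 cases and the lung-liver call in 0 of 6, while the log2 value stayed between -1.13 and -0.70 and between 0.72 and 0.99.

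PRSS2 was lower in subclone 13 lung than tumour by -2.34 ± 0.65 log2, with an edgeR adjusted p of 0.164 without and 0.0428 with the mouse term, and lower in liver than tumour by -2.47 ± 0.66, with 0.163 and 0.0440. Each direction held in 2 of 3 mice, since in mouse 2 PRSS2 was higher in lung and liver than in the tumour. Both values rest on the tumour of mouse 1. Without that sample they were -0.868 and -0.999 in the fit with the mouse term, with edgeR adjusted p of 0.419 and 0.392, and -0.72 and -0.84 without that term. Of the 6 samples left out in turn, only the tumour of mouse 2 kept the calls with the mouse term. In subclone 2 PRSS2 differed by -0.33 ± 0.60 in lung and -0.74 ± 0.60 in liver against tumour, neither called. EPHB6 in subclone 13 lung was -2.74 ± 1.02 against tumour (edgeR adjusted p 0.413), on 0 to 3.17 CPM, and between -4.74 and -1.02 when samples or mice were left out, the last without mouse 1.

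TERT was higher in metastases than in tumours in 4 of 4 comparisons by its point estimate, and 1 of these was called with the mouse term. In subclone 13 lung against tumour it was 1.88 ± 0.53 log2 (higher in 3 of 3 mice), with an edgeR adjusted p of 0.164 without and 0.0374 with the mouse term. Without the lung of mouse 3, the highest subclone 13 sample, the value with the mouse term was 1.16 and the edgeR adjusted p 0.289; the call was kept in 1 of 6 cases. Liver against tumour was 1.53 ± 0.52 in subclone 13, and in subclone 2 the values were 1.02 ± 0.51 in lung and 1.16 ± 0.51 in liver, none called by edgeR in either fit. TERT in lung against liver was -0.13 ± 0.50 in subclone 2.

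Without mouse 1, whose samples stood apart, the edgeR fit without a mouse term gave MISP at -1.05 in subclone 2 liver against tumour and 0.90 in lung against liver. It gave PRSS2 at -0.91 and -0.98 in subclone 13 lung and liver against tumour, and TERT at 2.12 in subclone 13 lung against tumour. None of these 5 was called, and the PRSS2 values were the ones that shrank.

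The test of whether an organ change differed between the subclones called 0 genes in lung and 0 in liver in edgeR (138 and 297 at an unadjusted p under 0.05; DESeq2 called 0 and 2, or 0.00533% of genes in liver, none of them a member). The edgeR fit with the mouse term called 0% and 0.00574%, and the fit without a filter 0.016% and 0.0931%, EPHB6 in lung among them. Of the members, EPHB6 had the largest such difference, 3.49 ± 1.29 log2 in lung against tumour, followed by PRSS2 at 2.01 ± 0.87. Both had an edgeR adjusted p of 0.99998. For the members this contrast is made of the subclone differences they were chosen on, so it describes them and supports nothing. Leaving out samples or mice moved the EPHB6 difference between 1.16 and 5.35 and that of PRSS2 between 0.37 and 2.65; without mouse 1 they were 1.16 and 0.40. An organ change called in 1 subclone is thus not shown to be absent from the other.

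**Figure D3:**
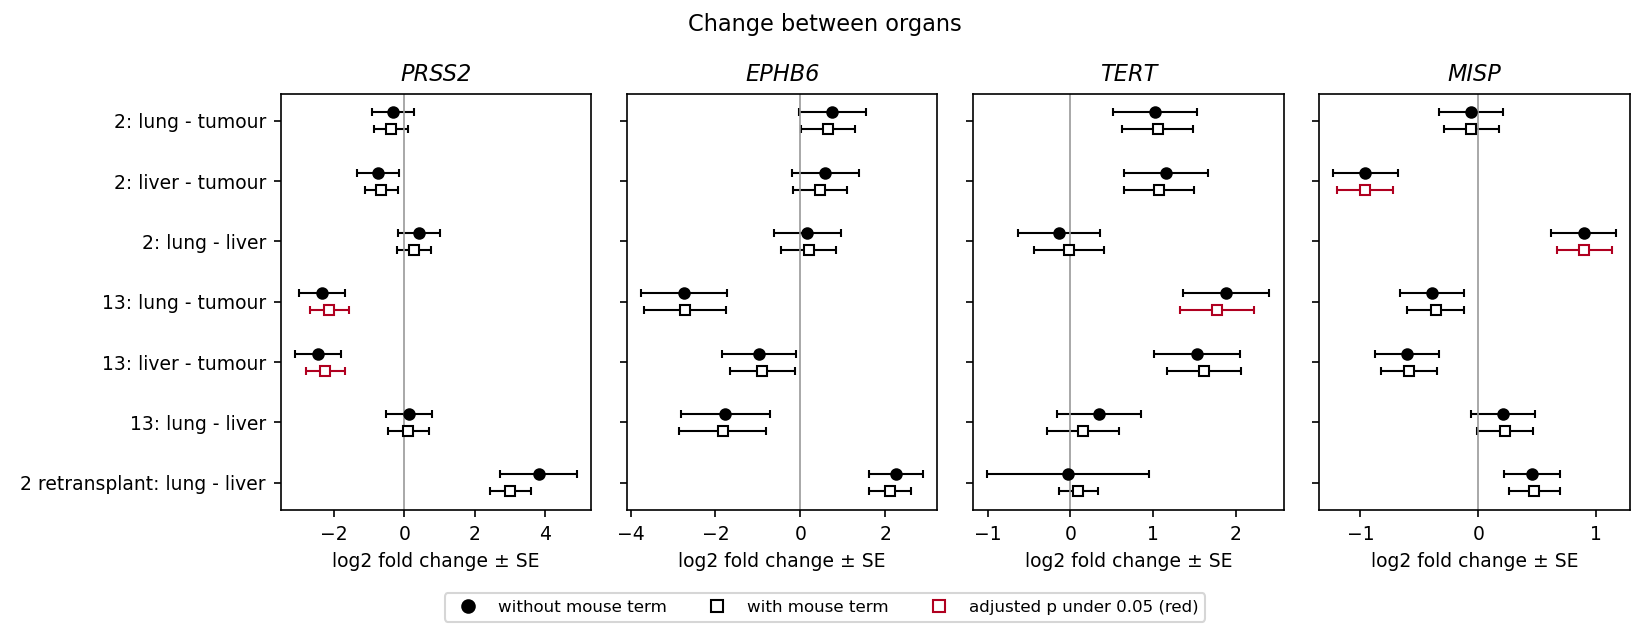
Log2 fold change ± SE between organs for each gene, from edgeR without (filled circles) and with mouse as a term (open squares); red marks an adjusted p under 0.05. The red points are MISP in subclone 2 liver, PRSS2 in subclone 13 metastases and TERT in subclone 13 lung, all from the fit with the mouse term.

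The partners of each gene were read from lists. Log2 values ± SE of list genes come from the fit without the mouse term, also where only the fit with it called them. Between the subclones edgeR called 0.109%, 0.184% and 0.247% of all genes in tumours, lung and liver, and 0.505%, 1.54% and 1.5% with the mouse term. Of 24 trypsin-related genes (trypsinogens, other PRSS proteases, inhibitors and trypsin-cleaved receptors), 15 were tested, and without the mouse term edgeR called F2RL1, which encodes the receptor PAR2 that trypsin activates by cleavage. F2RL1 was lower in subclone 2 lung, at 161 ± 41.5 CPM, and liver, at 151 ± 10.4, than in tumours, at 323 ± 16.4, by -1.01 ± 0.22 and -1.10 ± 0.22 log2, with edgeR adjusted p of 0.04997 and 0.0346. With the mouse term F2RL1 and F2R, the thrombin receptor PAR1, were both called in these 2 comparisons and in subclone 13 lung against tumour, each lower in the metastases. SERPINA1, the serum inhibitor of elastase and trypsin, was lower in subclone 2 than in subclone 13 liver by -1.99 ± 0.34 log2 (edgeR adjusted p 0.0199), at 45.3 ± 17.6 against 179 ± 22.9 CPM; it is also a hepatocyte marker, and of the others in the table only APOA1 reached 1 CPM in any sample of the first experiment. With the mouse term 4 tests of the list between subclones were called, each lower in subclone 2: SERPINA1 in tumours too, at 62.8 ± 3.20 against 171 ± 39.6 CPM, and F2R and F2RL1 in liver (-0.98 ± 0.20 and -0.84 ± 0.22 log2). The median log2 difference of the list between the subclones was 0.10 in tumours, 0.32 in lung and -0.23 in liver, against -0.02, 0.00 and 0.00 over all genes tested.

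PRSS2 has close relatives that could take its reads. Its coding sequence matched that of PRSS1 at 93.1% and that of PRSS3 at 91.3% of aligned bases. PRSS1 stayed between 0 and 0.321 CPM and did not pass the filter on low counts. PRSS3 ranged from 19.0 to 111 CPM in the first experiment, with subclone means of 50.6 ± 15.5 in subclone 2 and 36.3 ± 9.22 CPM in subclone 13 tumours, and was not called in any comparison. Reads shared among these genes were not measured, so whether they affect the PRSS2 level was not tested.

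Of 21 Eph receptors and ephrins other than EPHB6, 15 were tested and 0 were called by edgeR without the mouse term, between organs (18 of 135 tests at an unadjusted p under 0.05; DESeq2 called 2) or between subclones (7 of 45; DESeq2 called 0). EPHA2 was the most abundant of them, at 616 ± 146 CPM in subclone 2 tumours and 399 ± 50.2 in subclone 13 tumours. With the mouse term 7 of the 135 tests between organs were called by edgeR, in both directions. EPHB2 was lower in lung than tumour in subclone 2, at 86.6 ± 36.8 against 177 ± 37.8 CPM, and in subclone 13 lung and liver (-1.44 ± 0.38 and -0.76 ± 0.38 log2), and EPHA4 was lower in subclone 2 lung than tumour (-1.16 ± 0.29). EPHB3 was higher in subclone 2 lung than tumour (2.199 ± 0.84), and the ephrins EFNA1 and EFNA5 were higher in subclone 2 lung than liver (2.01 ± 0.71 and 0.68 ± 0.24). The list's median difference between the subclones was 0.31 in tumours, 0.36 in lung and 0.07 in liver.

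The telomerase list (assembly factors and telomere caps, 20 of 22 tested) had 0 genes called in every comparison, with or without the mouse term in edgeR and in DESeq2, with 1 of 180 tests between organs and 0 of 60 between subclones at an unadjusted p under 0.05. Its median difference between the subclones was -0.18 in tumours, -0.01 in lung and -0.09 in liver. DKC1, the dyskerin subunit of telomerase, stood at 98.4 ± 16.5 CPM in subclone 2 and 109 ± 5.61 in subclone 13 tumours. Of 24 genes of spindle orientation and cortical actin, all 24 were tested and 0 were called by edgeR without the mouse term (19 of 216 tests between organs and 5 of 72 between subclones at an unadjusted p under 0.05; DESeq2 called 0 and 1). FLNA, the actin crosslinker filamin A and the most abundant of them, stood at 3725 ± 688 and 3719 ± 391 CPM in tumours of subclones 2 and 13. With the mouse term edgeR called 3 tests between organs and 1 between subclones, all lower: FLNA and the membrane linker MSN in subclone 13 lung against tumour (-1.04 ± 0.34 and -0.98 ± 0.41 log2), NDEL1 in subclone 2 liver against tumour (-0.79 ± 0.39) and the actin bundler FSCN1 in subclone 2 against 13 in liver (-0.98 ± 0.26).

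The genome around the members was then read for genes within 500 kb that passed the filter. Between PRSS2 and EPHB6 lie the constant segments of the T cell receptor beta locus, TRBC1 and TRBC2, which code for part of the T cell antigen receptor. TRBC2 ranged from 18.6 to 89.3 CPM in the 9 subclone 2 samples and from 1.70 to 18.9 in subclone 13, where the liver of mouse 1 was highest. TRBC1 ranged from 2.53 to 8.34 and from 0 to 2.55 CPM. The log2 differences between the subclones for TRBC2 were 2.92 ± 0.64 in tumours, 4.86 ± 0.71 in lung and 2.72 ± 0.63 in liver, and for TRBC1 2.02 ± 0.62, 4.76 ± 0.74 and 3.43 ± 0.67. In liver both lay below those of PRSS2 and EPHB6.

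On the far side of EPHB6, TRPV6 was at most at a mean of 1.85 CPM in any group. Further out, GSTK1, a glutathione transferase 373 kb beyond EPHB6, differed by -0.18 ± 0.22, 0.10 ± 0.22 and -0.09 ± 0.22 in tumours, lung and liver, and CASP2, an initiator caspase, by -0.08 ± 0.30, 0.03 ± 0.30 and -0.21 ± 0.30. The 6 genes tested around PRSS2 had median differences of 1.30, 3.9996 and 2.31 in the 3 organs, and the 9 around EPHB6, which include those 6, had 0.36, 1.61 and 1.69. The windows around PRSS2 and EPHB6 share these neighbours, and most of the 102 genes annotated near PRSS2 are receptor segments that did not pass the filter. Among the 6, TRBV12-4, TRBV30 and TRPV6 stayed at group means of 1.85 CPM or lower. TRPV6 had at most 4 counts in a subclone 13 sample. It thus passed the filter through subclone 2 and was bound to read higher there. With such genes in them, the medians are a description only.

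Around MISP 36 neighbours were tested, and 33, 31 and 32 of them had a log2 difference above 0 in tumours, lung and liver, with medians of 0.42, 0.58 and 0.57. Over all genes the shares above 0 were 47.5%, 50.0% and 50.4%. In each of the 3 organs POLRMT, ARID3A and ARHGAP45 had all subclone 2 samples above all subclone 13 samples, as did 0.448% of all genes tested. ARHGAP45, at 88.4 ± 1.98 against 33.4 ± 5.22 CPM in lung, was the only 1 of the 36 called without the mouse term (edgeR adjusted p 0.0479). With that term edgeR called 1, 6 and 5 of the 36 in tumours, lung and liver (12 of 108 tests, all higher in subclone 2). Over all genes it called 0.505%, 1.54% and 1.5%, in either direction. Around TERT the 9 genes tested had medians of 0.18, 0.48 and 0.05, and 0 were called between the subclones by edgeR or DESeq2 (2 of 27 tests at an unadjusted p under 0.05). CLPTM1L, the gene next to TERT, differed by 0.31 ± 0.29, 0.46 ± 0.29 and 0.58 ± 0.29.

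**Figure D4:**
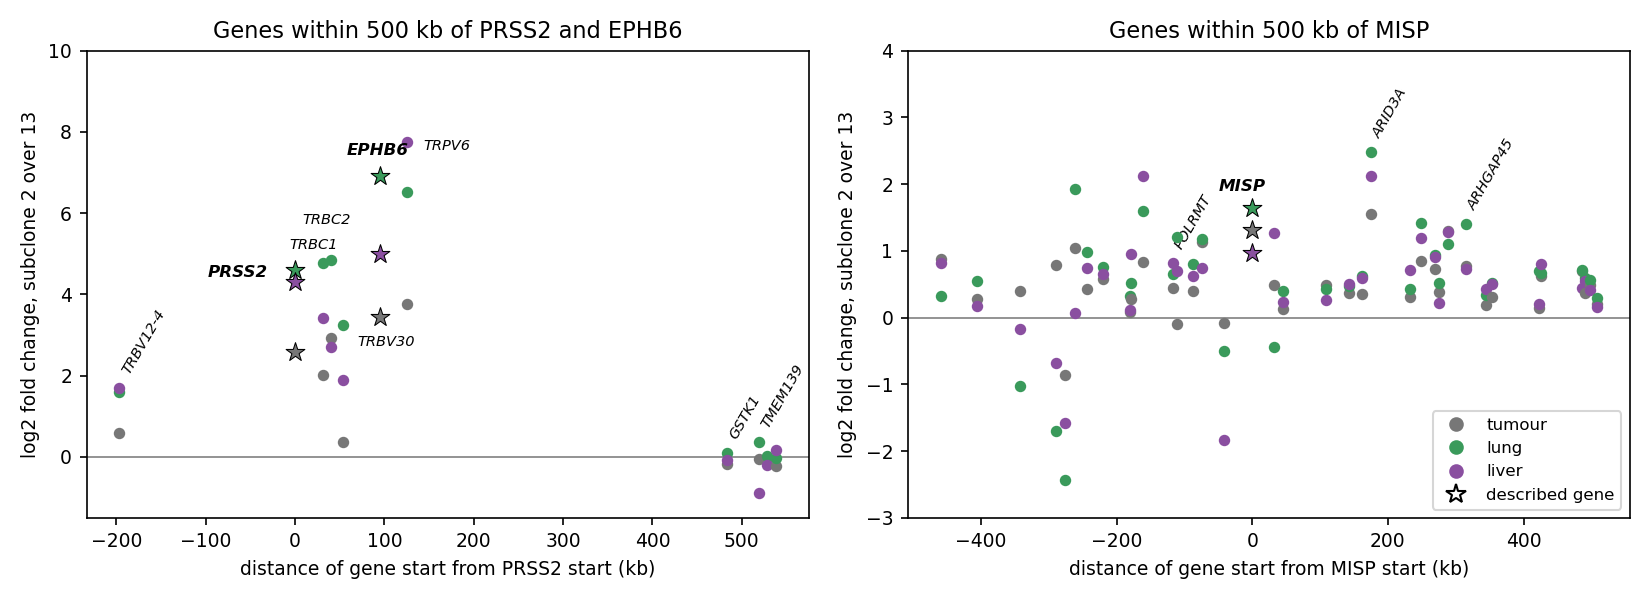
Log2 fold change of subclone 2 over subclone 13 in tumour, lung and liver for the genes within 500 kb of PRSS2 and EPHB6 (left) and of MISP (right) that passed the filter, by distance of the gene start in kb; stars are the described genes. On the left the genes from TRBV12-4, a receptor segment before PRSS2, to TRPV6 lie above 0. Those beyond, such as GSTK1, lie on both sides of 0, with TMEM139 at -0.88 in liver. TRBV12-4, TRBV30 and TRPV6 had group means of 1.85 CPM or lower. On the right 31 to 33 of 36 neighbours lie above 0.

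The genes most like each member over the 18 samples were ranked by Pearson r of log2 CPM, which largely follows the subclone difference they share. Among the genes most like PRSS2 were CCDC68 (r = 0.91), SERINC2 (0.90), FAM86LP (0.90) and TRBC1 (0.89). Among those most like EPHB6 were TRBC1 (0.95), TRBC2 (0.90), FAM83H (0.90) and SPIRE1 (0.88). The closest to TERT were TMC5 (0.93), TFF2 (0.90) and SYNGR2 (0.88), and those to MISP were TRIM29 (0.90), HHIP (0.89) and RSAD2 (0.89). Within subclone 2 alone (9 samples) the r between members was 0.56 for PRSS2 and EPHB6, 0.67 for EPHB6 and TERT, 0.47 for PRSS2 and MISP, 0.12 for EPHB6 and MISP, -0.01 for PRSS2 and TERT and -0.30 for TERT and MISP. Within subclone 13 it was 0.65, -0.75, 0.86, 0.36, -0.63 and -0.49 for the same pairs. These values share mice, runs and depth and are descriptions.

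In the retransplanted subclone 2 cells all 4 members were lower than in the first-experiment subclone 2 samples of the same organ. PRSS2 stood at 1.85, 25.7 and 1.90 CPM in the lung samples of mice 4, 5 and 6 and at 0.382, 1.09 and 0.561 in the liver samples. EPHB6 stood at 0.782, 2.68 and 0.720 CPM in lung and at 0.382, 0.334 and 0.156 in liver. Mouse 5 held the highest lung value of both, and for PRSS2 that sample alone came near the subclone 2 samples of the first experiment, whose lowest lung value was 26.0 CPM.

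TERT stood at 3.29, 15.1 and 1.71 CPM in the lung samples of mice 4, 5 and 6 and at 3.14, 15.8 and 1.34 in the liver samples, with mouse 5 again above the others in both. MISP stood at 32, 29 and 23.6 CPM in lung and at 16.0, 27.1 and 18.7 in liver. For all 4 members every retransplant sample was below every first-experiment subclone 2 sample of the same organ, in lung and in liver. That held for 2.96% of all genes compared, for 9.57% in lung alone and 9.72% in liver alone, and for 18 of the 78 genes whose subclones were separate in each of the 3 organs.

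The mean of the first experiment over that of the retransplants was 4.33 in lung and 47.3 in liver for PRSS2, 21.7 and 92.8 for EPHB6, 11.4 and 12.4 for TERT and 2.36 and 1.74 for MISP. Several of these rest on mouse 5: without it, the lung ratio was 22.7 for PRSS2, 40.2 for EPHB6 and 30.5 for TERT, and the liver ratio 37.3 for TERT. The retransplant values were also set against the 3 subclone 13 samples of the same organ. For these counts the share over all genes was not computed, so they are a description. At or below the highest subclone 13 sample were 2 of 3 lung and 3 of 3 liver samples for PRSS2, 1 of 3 (2 of 3 with both tables scaled together) and 3 of 3 for EPHB6, 3 of 3 and 3 of 3 for TERT, and 0 of 3 and 2 of 3 for MISP. Below the lowest subclone 13 sample were all 3 liver samples for PRSS2 and for EPHB6, and 2 of 3 lung and 2 of 3 liver samples for TERT. The members were chosen for being high in the first subclone 2 samples, so no test is given. The experiments also differ in mice and sequencing run and their tables were scaled separately, so experiment, run and retransplantation cannot be told apart. Scaling both tables together moved each of these ratios to at most 94.7 for EPHB6 and 49.0 for PRSS2 in liver and left every member below the first subclone 2 samples of the same organ.

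To set the members beside genes chosen in the same way, each gene called in all 3 organs was placed on a scale where 0 is the mean of subclone 13 and 1 the mean of subclone 2, in log2(CPM + 0.5) over lung and liver; this measure was chosen after the data had been seen. The retransplants lay at 0.05 for PRSS2, 0.05 for EPHB6, 0.17 for MISP and -0.93 for TERT, which was below the mean of subclone 13. By mouse, TERT was at -1.12, -0.10 and -1.56 and MISP at 0.13, 0.35 and 0.04 in mice 4, 5 and 6; for each of the 4 members mouse 5 was the closest to subclone 2. TRBC2, between PRSS2 and EPHB6, was at 0.65, with 30.5, 78.6 and 53.6 CPM in the lung and 11, 27.3 and 5.86 CPM in the liver samples. In liver 2 of those 3 TRBC2 values lay under the highest subclone 13 sample, 18.9 CPM. TRBC1 stood at 1.41, 4.91 and 3.71 CPM in the lung samples and at 0.509, 0.547 and 0.312 CPM in the liver samples, where subclone 13 had 0.302 to 0.729 CPM.

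In the other direction 28 genes (0.161%) were lower in subclone 2 than in subclone 13 in all 3 organs by the fit with the mouse term. Their retransplant positions had a median of 0.91 and ranged from 0.31 to 1.78, with 4 of the 28 under 0.5. Of these, named after their values were seen, SPARC, a matrix protein, was at 0.50, NGFR, the low-affinity neurotrophin receptor, at 0.72 and HLA-DRA, a class II antigen-presenting chain, at 1.37. The 4 members lay under all 28, whereas TRBC2 lay among them; with 5 genes on 1 side, this is a description of these libraries.

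**Figure D5:**
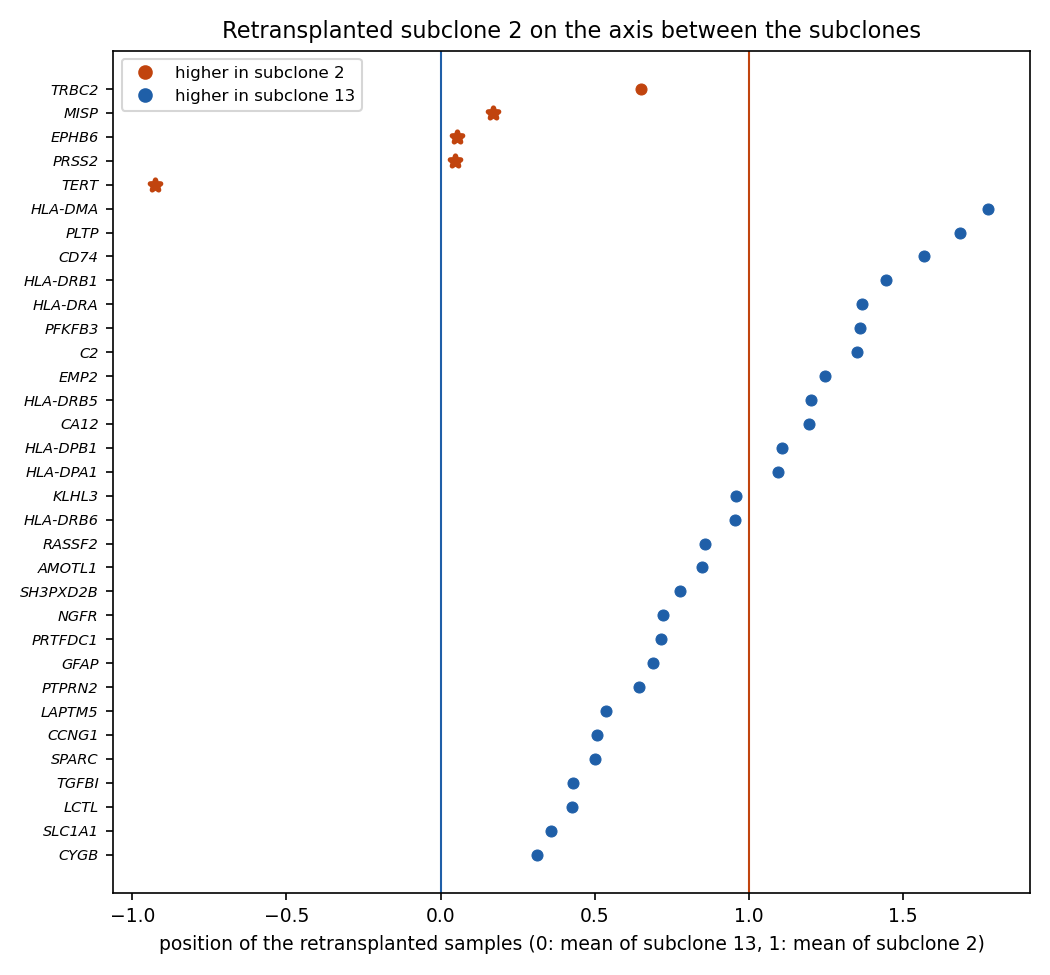
Position of the retransplanted subclone 2 samples between the lung and liver means of subclone 13 (0) and of subclone 2 (1) for each gene called in all 3 organs, members as stars. The 4 members lie between -0.93 and 0.17, TRBC2 at 0.65 and the 28 genes higher in subclone 13 between 0.31 and 1.78.

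Between the retransplant samples themselves, PRSS2 was higher in lung than in liver by 3.83 ± 1.09 log2 and EPHB6 by 2.26 ± 0.64, in 3 of 3 mice each, a pattern found in 20.2% of all genes tested. The edgeR adjusted p were 0.249 and 0.243 without the mouse term and 0.084 and 0.122 with it, so neither was called in these fits. Of these, the fit without that term called no gene (0%, 2198 at an unadjusted p under 0.05), whereas edgeR with the term called 0.479% of genes and DESeq2 2%. Without the filter on low counts edgeR called both, with adjusted p of 7.6e-06 and 0.0122, and 1.98% of all genes. DESeq2 gave an adjusted p of 0.05005 for EPHB6 and no p for PRSS2. Leaving out the lung of mouse 5 lowered the PRSS2 value to 1.45 and the EPHB6 value to 1.38. MISP differed by 0.45 ± 0.24 and TERT by -0.02 ± 0.98, and the TERT value had an SE wide enough to hold a fold change of either sign.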

How the data were processed

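RNA of sorted cells was column-purified with DNase treatment, and libraries came from an Illumina TruSeq kit (version 2) that does not keep strand, per the labels' protocols. The values deposited by the authors are read counts per gene; bcl2fastq 2.15.0.4, cutadapt, STAR, featureCounts and GRCh38 are named in the submitters' processing notes, without their order. For subclone 13 of mouse 1, 9 libraries (3 per organ) were summed, so 24 libraries gave 18 samples. Genes passing filterByExpr (17418 and 17549) were scaled by TMM within each table and tested by edgeR 4.0.16 quasi-likelihood F tests (R 4.3.3), all groups of a table in 1 fit, with Benjamini-Hochberg adjustment at 0.05; the procedure was tested on simulated data. CPM use TMM scaling. Log2 values ± SE in the text come from the fit without the mouse term. Symbols, exon lengths and positions come from GENCODE 29 and a table of gene names, promoters from RefSeq (GRCh38.p14).

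Same-numbered samples come from the same mouse, per the labels; their deviations from group means correlated at a median of 0.36 over 45 pairs (lowest 0.15), and at 0.30 over 3 pairs in the retransplants. The mouse term, DESeq2 1.42.0, no filter, RLE scaling, only the groups compared, left-out samples or mice and single libraries were the alternatives. Leaving out samples in the fit with the mouse term, the position scale and ratios without each retransplant mouse were added after seeing the data. The members, lists and neighbours were chosen with earlier results of these data known. For each member genes were named from the 5 with the highest r (some results are not reported here), from each list those called and the most abundant, and neighbours lay within 500 kb. P-values of the fits without a mouse term measure the spread between 3 mice per group and ignore that groups share mice. With the term they measure the spread left after the level of each mouse is removed.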

Additional observations from a re-analysis of the deposited data

How the results depend on the processing

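Counts of genes called in subclone 2 lung against tumour, liver against tumour and lung against liver were 76, 50 and 4. They were 337, 255 and 277 with DESeq2, 219, 261 and 247 without a filter, 532, 292 and 514 with mouse as a replicate block, and 18, 0 and 0 with only the groups compared. In subclone 13 the counts for lung against tumour, liver against tumour and lung against liver were 73, 67 and 0. They were 307, 237 and 50 with DESeq2, 260, 298 and 77 without a filter, and 503, 318 and 48 with the block; with only the groups compared, liver against tumour gave 30. Subclone differences in lung and liver gave 6 and 35 genes without a filter, and in liver 2 with DESeq2 and 1 with the block. The retransplant comparison gave 0 genes, 401 with DESeq2, 718 without a filter and 84 with the block.

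Without these changes no member was called. DESeq2 called 1, 1, 2 and 1 of 4 in subclone 2 liver against tumour, subclone 2 lung against liver, subclone 13 lung against tumour and subclone 13 liver against tumour, and the block called the same 5; the block changed no other call of a member. Without a filter 1, 3 and 2 were called in subclone 2 liver, subclone 13 lung and subclone 13 liver against tumour, 1 in the subclone difference in lung and 2 in the retransplants.

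Leaving out samples or mice gave 2 to 97, 0 to 99 and 0 to 135 genes in the subclone 2 comparisons and 0 to 145, 0 to 121 and 0 to 1 in those of subclone 13, and 0 to 16 in the retransplants, where the 16 came without the liver of mouse 5. Of the members, 0 to 1 were called in subclone 13 lung and liver against tumour, PRSS2 without the subclone 13 tumour of mouse 2 (edgeR adjusted p 0.0439 and 0.0273). Some log2 values changed sign: EPHB6 from -0.0504 to 1.21 in subclone 2 lung against tumour, from -0.62 to 0.90 in lung against liver and from -1.37 to 0.0444 in subclone 13 liver against tumour; MISP from -0.24 to 0.13 in subclone 2 lung against tumour and from -0.0552 to 0.58 in the subclone difference in lung; PRSS2 from -0.0443 to 0.43 in subclone 13 lung against liver. TERT ran from -0.54 to 0.18 in subclone 2 and from -0.43 to 0.93 in subclone 13 lung against liver, from -0.95 to 0.20 in the subclone difference in liver and from -1.42 to 1.58 in the retransplants, where the block gave 0.10. The cause of these changes was not tested, beyond there being fewer samples. With the tables scaled separately or a pseudocount of 1, retransplant positions were 0.06 and 0.06 for PRSS2, 0.06 and 0.04 for EPHB6, -0.89 and -0.87 for TERT and 0.21 and 0.17 for MISP. At the depth here, EPHB6 in subclone 13 rests on few counts, down to 0 of 13.4 M.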
